A study of Mus musculus with 12 samples.

Results

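The nuclear-encoded subunits of the mitochondrial respiratory chain and ATP synthase were followed in mouse CD8+ T cells, the cytotoxic lymphocytes, with and without an inhibitor of EZH2. Members were taken by symbol: the Nduf, Uqcr, Cox4 to Cox8 and Atp5 families together with Cyc1 and Cycs, which gave 82 of the 24421 gene symbols counted. Assigned by their known place in the chain, 36 belong to complex I, 9 to complex III, 19 to complex IV and 15 to complex V (ATP synthase), 1 is cytochrome c, and 2 (Atp5s and Atp5sl) carry the name of the synthase without being subunits of it. Ndufa4 was placed in complex IV, of which it is now known to be a subunit, and Cox7a2l, which helps complex III and complex IV join into supercomplexes, was placed there by its name.

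Both groups held CD8+ T cells of spleens from C57BL/6 mice, a common inbred strain: the EZH2i group (6 libraries) was given an EZH2 inhibitor, and the DMSO group (6 libraries) the solvent. EZH2 is the methyltransferase of Polycomb repressive complex 2 and places methyl groups on lysine 27 of histone H3. The inhibitor's name, its dose, the length of treatment, the age and sex of the mice and whether the cells were treated in culture are unstated in the sources used here. Nor is it stated that each library comes from its own mouse or culture, so a p-value reflects how far the sequenced libraries differ, and that spread may be technical. Poly(A) RNA was sequenced as single-end reads of 75 bases, and library totals ran from 19610258 to 31206228 counts in EZH2i and from 17215483 to 28092434 counts in DMSO.

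The respiratory chain passes electrons from NADH and succinate through complexes I and II to ubiquinone, on through complex III and cytochrome c to complex IV, and finally to oxygen, while protons are pumped across the inner mitochondrial membrane. ATP synthase lets the protons back and makes ATP from ADP. Most subunits are encoded in the nucleus and imported into mitochondria, and T cells draw on this route as they rest, divide and form memory. The mitochondrially encoded subunits were not analysed here.

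Of the 82 members, 75 had counts high enough to be tested, and these were expressed above most genes: their median level was 74.6 CPM (read counts relative to library size, scaled by the TMM method), against 30.5 CPM over all 11727 tested genes, and 36 of them (48%) were among the 2932 tested genes with the highest mean level, which make up 25% of those tested. Changes are therefore set beside these highly expressed genes as well as beside all tested genes. Ndufs5, an accessory subunit of complex I, was listed at 0 in all 12 libraries. Of its transcript, 46.9% is near-identical to another gene, and the annotation and the handling of reads with several matches are unstated. Whether its RNA was absent cannot be told from this 0. The other 6 untested members were isoforms of complex IV subunits known from other tissues. Of these, Cox7b2, Cox8b and Cox8c had 0 counts in both groups, Cox4i2 (lung) had 4 counts over the EZH2i libraries and 0 over the DMSO libraries, Cox6a2 (heart and muscle) had 34 and 19, and Cox7a1 (heart and muscle) had 40 and 66.

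With all libraries, most members had fold changes slightly below 0 in EZH2i, near those of other highly expressed genes, and few single members passed the test. Of 75 members, 5 were lower and 0 were higher at an adjusted p under 0.05 (quasi-likelihood test of edgeR, adjusted after Benjamini-Hochberg over all tested genes): Ndufv1 and Ndufs8 of complex I, Uqcrc2 and Uqcrc1 of complex III, and Ndufa4 of complex IV. That is 6.67% of members lower, beside 6.05% of all tested genes lower and 13.3% higher, and beside 11.7% lower and 3.44% higher in the highly expressed genes. The share of members called lower is thus near that of all genes and below that of highly expressed genes. At an unadjusted p under 0.05 in edgeR's test, 19 members were lower (25.3%) and 1 was higher (1.33%), beside 13.2% lower and 19.3% higher of all tested genes. The unadjusted shares of the highly expressed genes were not computed, so the 25.3% cannot be set beside them. Fold changes below 0 were more common than calls: 58 of 75 members (77.3%) had a fold change below 0, with a median log2 fold change of -0.13, beside -0.01 over all tested genes and -0.11 over the highly expressed genes, of which 71.4% lay below 0. In bulk RNA, fewer cells of a type and less RNA per cell cannot be told apart in any of these values.

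**Figure D1:**
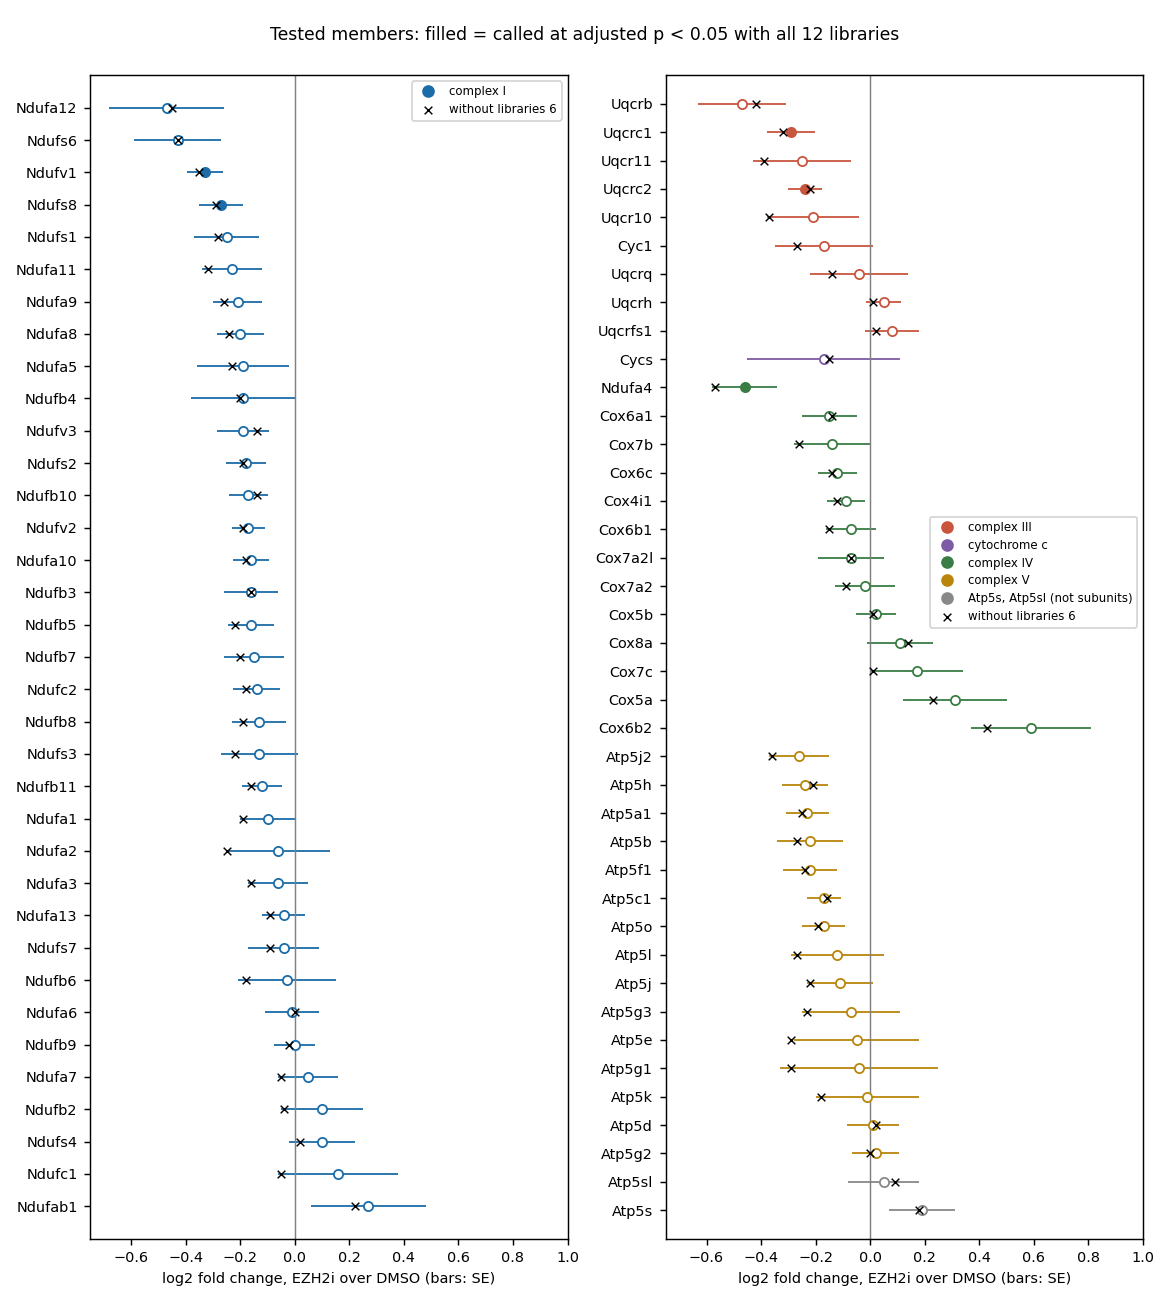
Log2 fold change of each of the 75 tested members (circles, EZH2i over DMSO, all 12 libraries; bars are the SE; filled circles are the 5 called members) and the value without both libraries numbered 6 (crosses). Most circles of complexes I, III and V lie left of 0, with medians of -0.15, -0.21 and -0.12, whereas complex IV runs from Ndufa4 at -0.46 to Cox6b2 at 0.59.

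The calls turned on how the libraries were paired and on the 2 libraries numbered 6. Both groups carry the numbers 1 to 6, although no label explains the numbers. Deviations from the group mean correlated between same-numbered libraries, most in number 6 (0.847). Without number 6 these correlations were only 0.0371 to 0.341. Libraries of different numbers were not compared, so the data do not settle whether the numbers mark pairs. The pairing is weakest in the fit with the block and without the libraries numbered 6. With the number as a block, 30 members were lower (40%) and 3 were higher, beside 24.3% of all tested genes lower and 24.7% higher, and 42.1% lower and 10.4% higher in the highly expressed genes. With both libraries numbered 6 left out and no block, 36 members were lower (48%) and 1 was higher, beside 20.9% and 23.9% of all tested genes and 35.2% and 10.9% of the highly expressed genes. With the block and without the libraries numbered 6, 46 were lower (61.3%) and 4 were higher, beside 24.2% and 26% of all tested genes and 41.2% and 12.9% of the highly expressed genes. The 5 members called on the group alone in all libraries were among those called in each of these 3 fits, and 27 members were called lower both with the block and without the libraries numbered 6. Leaving out EZH2i library 6 alone gave 27 lower (36%), beside 15.4% of all tested genes and 25.2% of the highly expressed genes. Leaving out DMSO library 4 alone gave 14 lower (18.7%), beside 7.93% and 15.1%. Leaving out EZH2i library 4 gave 2, and leaving out EZH2i library 2, EZH2i library 3 or DMSO library 1 gave 3 each, beside 3.71% to 4.47% of all tested genes and 7.37% to 9.14% of the highly expressed genes. The median log2 fold change of the members was -0.21 without EZH2i library 6 and -0.18 without both libraries numbered 6, and that of the highly expressed genes was -0.09 in both. Scaling to the upper quartile left 2 lower and 0 higher, Ndufv1 and Ndufa4 (2.96% and 15.3% of all tested genes, 5.73% and 5.01% of the highly expressed ones), and with the block as well it gave 15 lower and 4 higher (15.1% and 30%, and 26.8% and 16.3%). DESeq2 gave 12 lower and 1 higher, Cox6b2 (8.01% and 15.3% of all genes it tested, 17.7% and 4.07% of the highly expressed ones).

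Within same-numbered pairs, the members' median ratio ran from below 0 to above 0 between numbers. The median log2 ratio of EZH2i over DMSO across the 75 members was -0.20, -0.30 and -0.25 in numbers 1, 2 and 3, -0.05 and -0.07 in numbers 4 and 5, and 0.13 in number 6. Members below 0 numbered 66, 71 and 64 in the first 3 numbers, 49 and 44 in numbers 4 and 5, and 30 in number 6. Over the highly expressed genes the medians stayed between -0.14 and -0.07, with -0.14 in number 6. Numbers 1 to 3 thus had members well below the highly expressed genes, numbers 4 and 5 had them slightly above, and number 6 had them above 0. In all, 19 members (25.3%) were lower in EZH2i in 6 of 6 pairs and 2 (2.67%), Cox5a and Cox6b2, were higher in 6 of 6. The same counts gave 19.2% lower and 21.2% higher over all tested genes and 34.3% lower and 8.87% higher in the highly expressed genes.

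**Figure D2:**
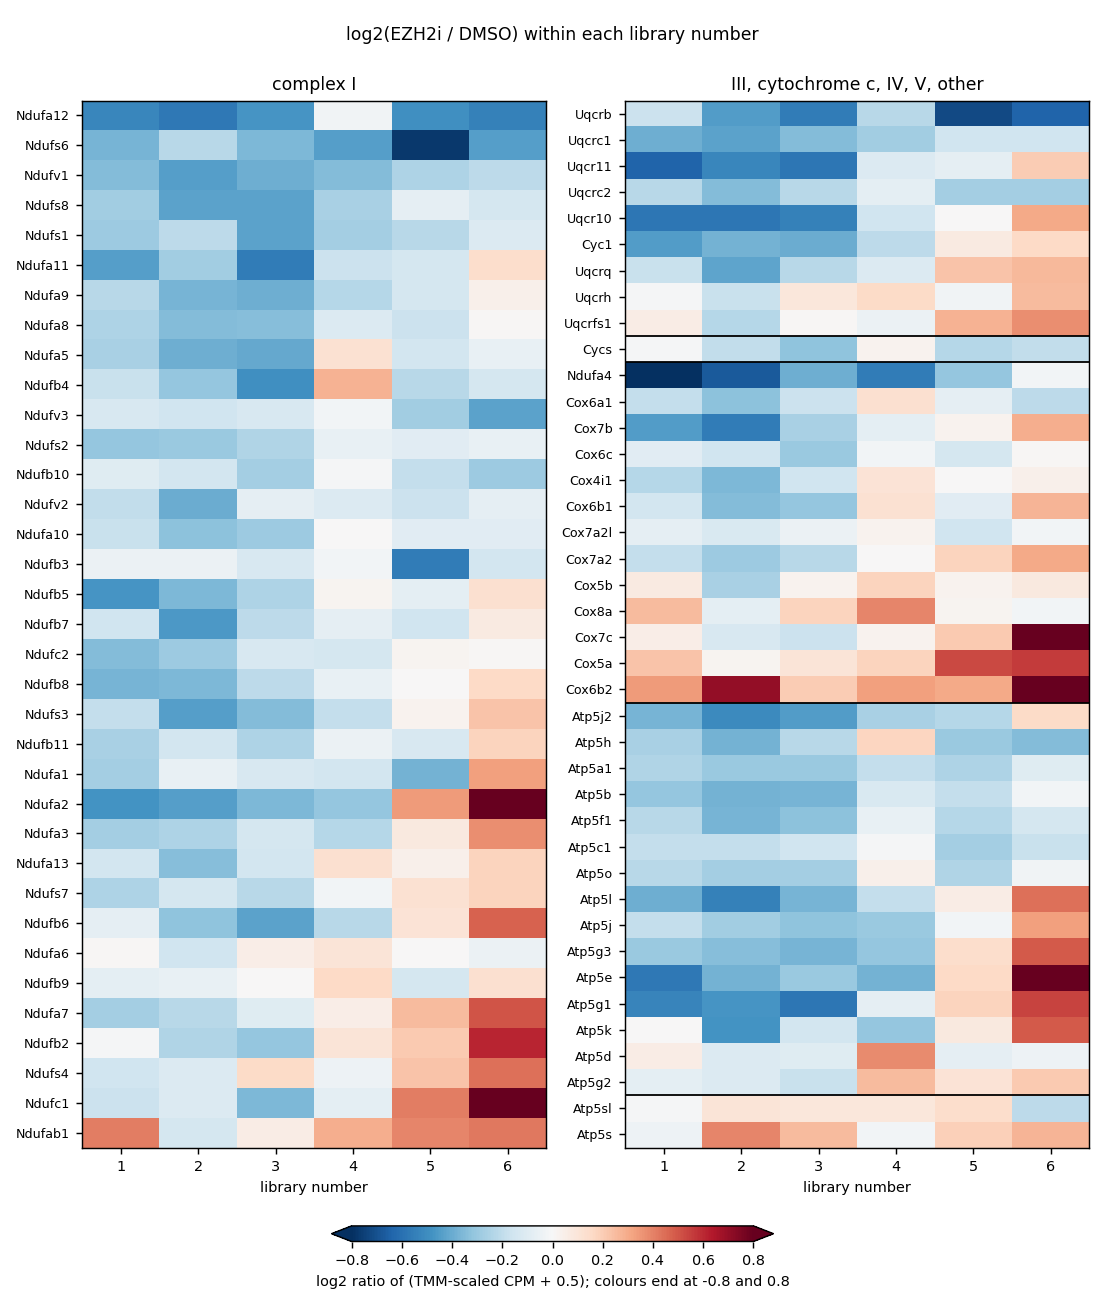
Log2 ratio of EZH2i over DMSO for each tested member (rows, ordered within a complex by the fold change over all libraries) within each library number (columns 1 to 6); blue is lower and red higher in EZH2i, with colours ending at -0.8 and 0.8. Numbers 1 to 3 are mostly blue (66, 71 and 64 of 75 members below 0) and number 6 is mostly red (30 of 75 below 0).

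EZH2i library 6 was the library with the highest level of its group for 57 of 75 members (76%), against 36.5% of all tested genes. It was the lowest for 8% of members and 42.8% of all tested genes, so it was outermost for 84% and 79.3%. DMSO library 6 was highest of its group for 34 of 75 (45.3%), against 35.7% of all tested genes, and lowest for 18.7% against 37.1%. It was outermost for 64% of members and 72.8% of all tested genes. DMSO library 4 was the lowest of its group for 30 of 75 members (40%), against 21.9% of all tested genes. The summed level of all members was 8322, 7553, 7908, 8356, 8441 and 10234 CPM in EZH2i libraries 1 to 6, against 9573, 9220, 9286, 8618, 9115 and 10047 CPM in DMSO libraries 1 to 6. EZH2i libraries 1 to 5 were therefore all below the lowest DMSO library, and EZH2i library 6 was above every DMSO library.

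**Figure D3:**
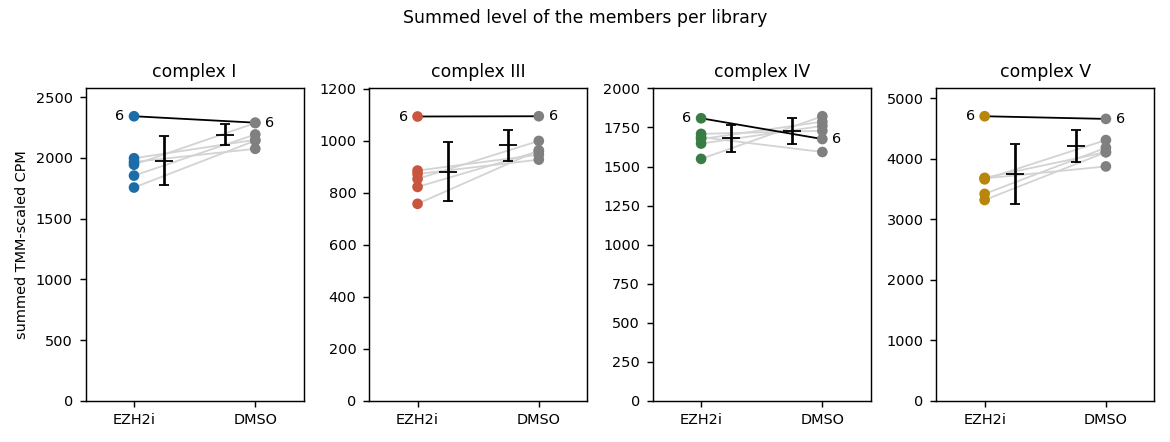
Summed TMM-scaled CPM of the members of each complex in every library, EZH2i to the left of DMSO; grey lines join same-numbered libraries, the black line joins the libraries numbered 6, and bars show the mean and SD of 6 libraries. In complexes I, III and V the 5 other EZH2i libraries lie below all DMSO libraries, and EZH2i library 6 lies at the level of the highest DMSO library.

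Complex I, which takes electrons from NADH, had 35 tested members, of which 2 were lower and 0 higher. Its summed level averaged 1977 ± 200 CPM in EZH2i and 2190 ± 85.6 CPM in DMSO (SD, n = 6 each), and its median log2 fold change was -0.15, with 29 of 35 members below 0. Both called members are among the 7 nuclear-encoded core subunits, most of which carry the flavin or iron-sulfur clusters. The 7 had a median log2 fold change of -0.18 and all 7 were below 0, beside -0.14 and 0 called of 28 accessory subunits. Of these 28, 6 were lower at an unadjusted p under 0.05 in edgeR's test (21.4%, beside 13.2% of all tested genes). DESeq2 called 1 of them lower (3.57%), beside 8.01% of all genes it tested and 17.7% of the highly expressed ones. Leaving out EZH2i library 6 gave 13 members of the complex called lower (37.1%, beside the 25.2% of highly expressed genes given above), leaving out DMSO library 4 gave 6 (17.1%, beside 15.1%), and leaving out EZH2i library 2, 3 or 4 or DMSO library 1 or 2 gave 1.

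Ndufv1 (chr19:4007384-4012806, minus strand, GRCm38) binds the flavin and is where NADH gives up its electrons. Its level ran from 59.8 to 77.6 CPM in EZH2i with a median of 68.5, against 81.3 to 90.1 CPM in DMSO with a median of 87. The groups did not overlap, which held in the lower direction for Ndufv1 alone among the members and for 2.74% of all tested genes (5.66% of the highly expressed genes). The log2 fold change was -0.33 ± 0.065 (SE), with an adjusted p of 0.0029 in edgeR's quasi-likelihood test, and Ndufv1 was called lower under all 20 alternatives tried, leave-one-out settings included. Ndufs8 (chr19:3908863-3912774, minus strand), which holds iron-sulfur clusters in the arm leading to ubiquinone, lies near Ndufv1 on the same chromosome. Its level ran from 45.3 to 59.7 CPM in EZH2i with a median of 50.5, against 56.4 to 65.7 CPM in DMSO with a median of 62.3. The ranges overlapped at their edge, and Ndufs8 was lower in EZH2i in 6 of 6 pairs (log2 fold change -0.27 ± 0.081, adjusted p of 0.0345 in edgeR's test). It was not called under upper-quartile scaling (adjusted p of 0.0878, edgeR), nor without EZH2i library 2, 3 or 4 (0.0759, 0.0831 and 0.104) or without DMSO library 1, 2, 3 or 6 (0.069, 0.0595, 0.0599 and 0.0524).

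Ndufs1, the largest iron-sulfur subunit, was not called by edgeR's test on the group alone. Its level ran from 67.8 to 114 CPM in EZH2i with a median of 78.9, against 87.3 to 123 CPM in DMSO with a median of 94.4. The library numbered 6 was the highest in each group, and Ndufs1 was lower in EZH2i in 6 of 6 pairs. The log2 fold change was -0.25 with an adjusted p of 0.175 in edgeR's test, and -0.26 with 0.000863 with the block. Without EZH2i library 6 it was -0.36 (adjusted p of 0.00719, edgeR). Core subunits called lower with the block were 5 of 7 (71.4%), beside 24.3% of all tested genes and 42.1% of the highly expressed genes. Without the libraries numbered 6 they were 6 of 7 (85.7%), beside 20.9% and 35.2%.

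Among the accessory subunits, 10 of 28 were lower (35.7%) and 1 was higher with the block, beside 24.3% of all tested genes and 42.1% of the highly expressed genes lower. Without the libraries numbered 6, 13 of 28 were lower (46.4%) and 0 higher, beside 20.9% and 35.2% lower. Ndufa12 had the fold change farthest below 0 in complex I with all libraries (-0.47, adjusted p of 0.141 in edgeR's test and 5.89e-05 with the block). Ndufs6, a zinc-binding subunit of the matrix arm, had -0.43 (edgeR, adjusted p of 0.077, 0.042 by DESeq2 and 8.86e-05 with the block). The accessory subunit higher with the block was Ndufab1, the mitochondrial acyl carrier protein, which serves fatty acid and lipoate synthesis as well as complex I. Its level ran from 20.5 to 51.1 CPM in EZH2i with a median of 28.2, against 20.6 to 38.2 CPM in DMSO with a median of 23. The log2 fold change was 0.27 (0.409 as the adjusted p in edgeR's test, and 0.0177 with the block), the opposite of most of the complex. Ndufa12, Ndufs6 and Ndufab1 were chosen after their values were seen.

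Complex III, which hands electrons from ubiquinol to cytochrome c, had 9 tested members, of which 2 were lower and 0 higher. Its summed level averaged 881 ± 114 CPM in EZH2i and 983 ± 60.1 CPM in DMSO (SD, n = 6 each), and its median log2 fold change of -0.21 was the lowest of the 4 complexes. With the block, and without the libraries numbered 6, 6 of 9 were lower in each fit (66.7%). The shares in these 2 fits were 24.3% and 20.9% of all tested genes, and 42.1% and 35.2% of the highly expressed genes. Leaving out EZH2i library 6 gave 6 (66.7%), beside 15.4% of all tested genes and 25.2% of the highly expressed genes. Upper-quartile scaling left 0 called, beside 2.96% and 5.73%. Leaving out EZH2i library 4 gave 0, and leaving out EZH2i library 2, 3 or 5 or DMSO library 1, 3 or 6 gave 1. These fits called 3.71% to 6.4% of all tested genes lower, and 7.37% to 13.1% of the highly expressed genes.

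Uqcrc1 and Uqcrc2 are the core proteins that form the matrix side of the complex. Uqcrc1 (chr9:108936633-108949623, plus strand) ran from 120 to 172 CPM in EZH2i with a median of 135, against 156 to 192 CPM in DMSO with a median of 165. EZH2i library 6 was the one inside the DMSO range, and the log2 fold change was -0.29 ± 0.087 (adjusted p of 0.0316 in edgeR's test). Uqcrc2 (chr7:120635176-120659524, plus strand) ran from 210 to 244 CPM in EZH2i with a median of 220, against 236 to 293 CPM in DMSO with a median of 263. Its ranges overlapped through the same EZH2i library, and the log2 fold change was -0.24 ± 0.062 (adjusted p of 0.0176 in edgeR's test). Both were lower in EZH2i in 6 of 6 pairs, and both lost the call under upper-quartile scaling (adjusted p of 0.0725 for Uqcrc1 and 0.0564 for Uqcrc2, edgeR). Uqcrc1 also lost it without any of EZH2i libraries 1 to 5 (0.0598, 0.0694, 0.0717, 0.0982 and 0.0594) and without DMSO library 1, 3 or 6 (0.0658, 0.0503 and 0.051), and Uqcrc2 without EZH2i library 4 (0.0538). In the GENCODE M21 annotation, 19.7% of the exonic bases of Uqcrc2 overlap Pdzd9 on the other strand, and whether strand was used in counting is unstated.

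The remaining members of complex III had fold changes on both sides of 0, and none was called by edgeR's test on the group alone. With the block, Cyc1, Uqcrb, Uqcr10 and Uqcr11 were lower. Cyc1, the heme-bearing cytochrome c1, ran from 58.6 to 129 CPM in EZH2i with a median of 67.3, against 75.8 to 115 CPM in DMSO with a median of 83.1. The ranges overlapped fully, with the library numbered 6 highest in each group, and the log2 fold change of -0.17 had an adjusted p of 0.582 in edgeR's test, 0.0381 with the block, 0.0225 without EZH2i library 6 and 0.0086 without both libraries numbered 6. Uqcrb, which helps form the ubiquinone site, had -0.47 (adjusted p of 0.0516, edgeR) and was lower in EZH2i in 6 of 6 pairs. It was called lower under RLE scaling (adjusted p of 0.0499, edgeR), by DESeq2 (0.0236), with the block (7.21e-05) and without the libraries numbered 6 (0.00787). Uqcrfs1, the Rieske iron-sulfur protein that moves electrons to cytochrome c1, had 0.08, and Uqcrh, the hinge protein, had 0.05, and neither was called in any of the 3 fits with the block or without the libraries numbered 6. Uqcrb, Uqcr10, Uqcr11, Uqcrfs1 and Uqcrh were chosen after their values were seen.

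Cycs, cytochrome c, carries electrons between complexes III and IV and, once released to the cytosol, sets off caspase activation. Its level ran from 100 to 248 CPM in EZH2i with a median of 109, against 98.7 to 285 CPM in DMSO with a median of 130. The libraries numbered 6 held both highest values, more than 1 log2 unit above the mean of the other 5 (1.16 in EZH2i and 1.21 in DMSO). The log2 fold change was -0.17 with an adjusted p of 0.729 in edgeR's test, and -0.16 with an adjusted p of 0.0253 with the block. Without the libraries numbered 6 it was -0.15 (adjusted p of 0.144, edgeR). Its sign turned on 1 library: the log2 fold change was 0.11 without DMSO library 6 alone and -0.44 without EZH2i library 6 alone. Cycs was not called in either of these fits. Cycs shares stretches of near-identical sequence with 14 other annotated genes, so its count is uncertain.

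**Figure D4:**
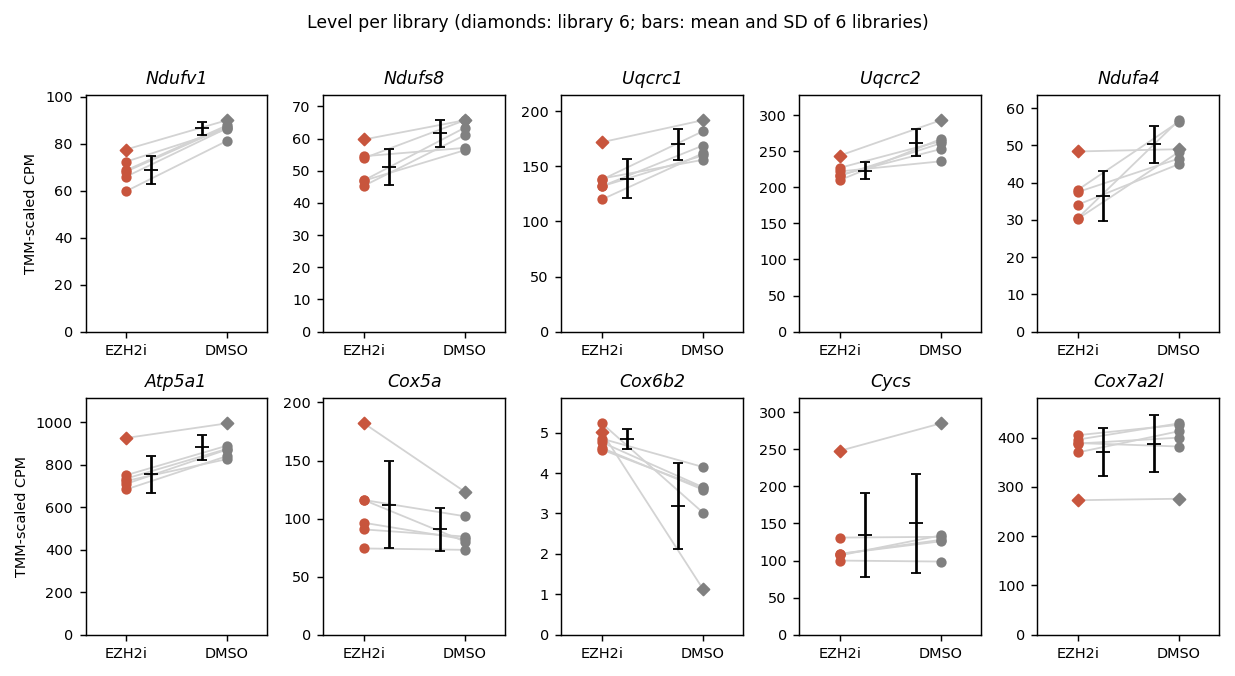
TMM-scaled CPM per library of 10 members, EZH2i to the left of DMSO; grey lines join same-numbered libraries, diamonds are the libraries numbered 6, and bars show the mean and SD of 6 libraries. Ndufv1 is the member whose EZH2i libraries all lie below the DMSO libraries, Cox6b2 has all EZH2i libraries above, and in Cycs the libraries numbered 6 (248 CPM in EZH2i and 285 CPM in DMSO) stand above the other 5 of their group.

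Complex IV, cytochrome c oxidase, reduces oxygen to water, and its members had fold changes on both sides of 0. Of 13 tested members 1 was lower and 0 higher, and the median log2 fold change was -0.07, with 8 members below 0. Its summed level averaged 1680 ± 84.6 CPM in EZH2i and 1728 ± 82.7 CPM in DMSO (SD, n = 6 each). With the block, 1 was lower (7.69%) and 2 were higher (15.4%), beside 24.3% and 24.7% of all tested genes and 42.1% and 10.4% of the highly expressed genes. Without the libraries numbered 6, 3 were lower (23.1%) and 1 was higher (7.69%), beside 20.9% and 23.9% of all tested genes. With both changes 4 were lower (30.8%) and 3 higher (23.1%), beside 24.2% and 26%. Leaving out EZH2i library 6 alone gave 3 lower (23.1%), beside 15.4% of all tested genes and 25.2% of the highly expressed genes. Leaving out DMSO library 4 gave 2 lower (15.4%), beside 7.93% and 15.1%. Leaving out DMSO library 6 gave 1 higher (7.69%), beside 14.5% and 3.48% higher.

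Ndufa4 (chr6:11900292-11907497, minus strand), a small subunit once assigned to complex I, was the called member. Its level ran from 30.3 to 48.4 CPM in EZH2i with a median of 35.8, against 45 to 56.8 CPM in DMSO with a median of 48.7. EZH2i library 6 lay inside the DMSO range and the other 5 lay below it. The log2 fold change was -0.46 ± 0.12 (adjusted p of 0.0126 in edgeR's test), with a lower level in EZH2i in 6 of 6 pairs, and the call held under all 20 alternatives tried.

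Cox5a and Cox6b2 had fold changes above 0. Neither was called by edgeR's test on the group alone, both were called higher with the block, and DESeq2 called Cox6b2 higher (adjusted p of 0.0291). Cox5a, a matrix-side subunit, ran from 74.3 to 182 CPM in EZH2i with a median of 106, against 73.1 to 123 CPM in DMSO with a median of 83.3. The ranges overlapped, and Cox5a was higher in EZH2i in 6 of 6 pairs. Its log2 fold change of 0.31 had an adjusted p of 0.307 in edgeR's test, and 0.27 with 0.00417 with the block. In the annotation, 12.8% of its exonic bases overlap Gm26631 on the other strand. Cox6b2 (chr7:4751792-4753094, minus strand), an isoform known from testis, ran from 4.58 to 5.23 CPM in EZH2i with a median of 4.8, against 1.13 to 4.15 CPM in DMSO with a median of 3.61. The groups did not overlap, which held in the higher direction for 7.5% of all tested genes, and DMSO library 6 was the lowest. Its log2 fold change was 0.59 (adjusted p of 0.0831 in edgeR's test), 0.63 with the block (adjusted p of 0.0101), 0.43 without the libraries numbered 6 (adjusted p of 0.00841) and 0.42 without DMSO library 6 alone (adjusted p of 0.0173).

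Cox6b1 is the common form of the same subunit. Per kilobase of transcript and over all 12 libraries, Cox6b2 stood at 6.87 CPM and Cox6b1 at 209 CPM. The log2 ratio of Cox6b2 to Cox6b1 was -4.69 ± 0.23 in EZH2i and -5.48 ± 0.70 in DMSO (SD, n = 6 each), a difference of 0.79. A two-sided exact permutation test gave p = 0.00216, the smallest that 6 against 6 libraries allow, and 0.00866 after adjustment over the 4 ratios of paired isoforms computed. Leaving out 1 library gave differences from 0.51 (without DMSO library 6) to 0.88. All 6 pairs had a higher ratio in EZH2i, and a two-sided exact test that exchanges signs within pairs gave the smallest p that 6 pairs allow, which became 0.125 after adjustment over the 4 ratios. Cox6b1 itself ran from 105 to 161 CPM in EZH2i with a median of 123, against 120 to 140 CPM in DMSO with a median of 134, and was not called (log2 fold change -0.07, adjusted p of 0.638, edgeR; -0.15 and 0.0476 with the block and without the libraries numbered 6).

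Cox4i1, the largest nuclear-encoded subunit, ran from 240 to 307 CPM in EZH2i with a median of 276, against 285 to 307 CPM in DMSO with a median of 292. The groups overlapped, and the log2 fold change of -0.09 had an adjusted p of 0.398 in edgeR's test. Cox7a2l ran from 273 to 405 CPM in EZH2i with a median of 388, against 276 to 429 CPM in DMSO with a median of 407. It was lowest in the libraries numbered 6 of both groups, unlike Cycs, and its log2 fold change was -0.07 (edgeR, adjusted p of 0.741). Cox7a2, the related subunit, ran from 57.5 to 95.3 CPM in EZH2i with a median of 73, against 66.9 to 78 CPM in DMSO with a median of 77.4 (log2 fold change -0.02, adjusted p of 0.929, edgeR). The log2 ratio of Cox7a2l to Cox7a2 was 2.33 ± 0.45 in EZH2i and 2.36 ± 0.27 in DMSO (SD, n = 6 each), a difference of -0.03 (two-sided exact permutation test, p = 0.887).

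Complex V makes the ATP. None of its 15 members was called on the group alone (0 lower and 0 higher in edgeR's test, with Atp5a1 at the smallest p). At an unadjusted p under 0.05 in edgeR's test, 5 were lower (33.3%) and 0 higher, beside 13.2% and 19.3% of all tested genes. DESeq2 called 3 lower (20%), the block 7 (46.7%), and the fit without the libraries numbered 6 called 8 (53.3%). These fits called 8.01%, 24.3% and 20.9% of all tested genes lower, and 17.7%, 42.1% and 35.2% of the highly expressed genes. Its summed level averaged 3745 ± 494 CPM in EZH2i and 4209 ± 263 CPM in DMSO (SD, n = 6 each), and 13 of 15 members had a log2 fold change below 0, with a median of -0.12. Leaving out EZH2i library 6 gave 5 called lower (33.3%, beside 25.2% of the highly expressed genes) and leaving out DMSO library 4 gave 3 (20%, beside 15.1%). Upper-quartile scaling moved the medians of complexes I, III, IV and V to -0.09, -0.15, -0.01 and -0.06, beside 0.05 over all tested genes.

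Atp5a1 and Atp5b are the alpha and beta subunits of the catalytic head. Atp5a1 ran from 683 to 925 CPM in EZH2i with a median of 729, against 826 to 994 CPM in DMSO with a median of 873. The 5 other EZH2i libraries lay below all DMSO libraries and library 6 lay among them, and the log2 fold change was -0.23 ± 0.078 (adjusted p of 0.0599 in edgeR's test, 0.00114 with the block, 0.00248 with EZH2i library 6 left out and 0.0492 with DMSO library 4 left out). Atp5b ran from 799 to 1312 CPM in EZH2i with a median of 910, against 997 to 1328 CPM in DMSO with a median of 1063. It was lower in EZH2i in 6 of 6 pairs, and its log2 fold change was -0.22 (adjusted p of 0.219 in edgeR's test, 0.00368 with the block and 0.00582 without EZH2i library 6). Per kilobase of transcript Atp5b was the highest of the 14 members of complex V with an annotated length, at 534 CPM over all libraries.

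The c ring that turns in the membrane is encoded by 3 genes for the same mature protein. Atp5g1 ran from 26.1 to 96.3 CPM in EZH2i with a median of 36.5, against 35.5 to 66 CPM in DMSO with a median of 44.1. Its value in EZH2i library 6 lay 1.5 log2 units above the mean of the other 5, the farthest above among the members (0.66 in DMSO). Atp5g3 ran from 97.4 to 221 CPM in EZH2i with a median of 128, against 123 to 174 CPM in DMSO with a median of 139, and Atp5g2 from 276 to 319 CPM in EZH2i with a median of 304, against 238 to 332 CPM in DMSO with a median of 304. All 3 overlapped between the groups and none was called by edgeR's test on the group alone, with log2 fold changes of -0.04 for Atp5g1, -0.07 for Atp5g3 and 0.02 for Atp5g2 (adjusted p of 0.945, 0.82 and 0.877). Without the libraries numbered 6, Atp5g1 had -0.29 and Atp5g3 -0.23 (adjusted p of 0.0511 and 0.0879, edgeR), and with the block as well both were called lower (0.0108 and 0.00561). Atp5g1 shares near-identical stretches with 11 other annotated genes, and 88.2% of the transcript of Atp5g2 is near-identical to other genes, so their counts and the ratios below are uncertain. The ratios among them did not pass the test: Atp5g1 to Atp5g3 differed by -0.04 and Atp5g2 to Atp5g3 by 0.15 on the log2 scale (adjusted p = 0.887 for both, two-sided exact permutation tests).

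**Figure D5:**
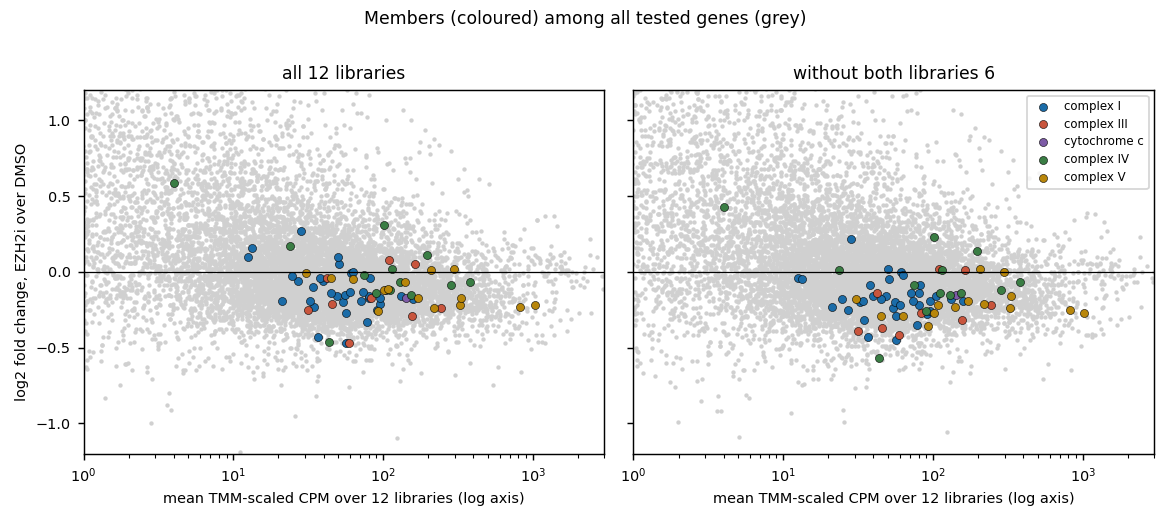
Log2 fold change of EZH2i over DMSO against mean TMM-scaled CPM (log axis) for all tested genes (grey) and the members (coloured by complex), with all 12 libraries (left) and without both libraries numbered 6 (right); genes beyond 1.2 log2 units either way, or outside 1 to 3000 CPM, are not shown. The 2932 genes with the highest level lie mostly below 0, with a median of -0.11 with all libraries and -0.09 without the libraries numbered 6, and the members' median was -0.13 and -0.18.

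Length and shared sequence were set beside these values, since most members are short. The median transcript of the members was 865 bases, against 2996 bases over all tested genes. The 31 members with a transcript of at least 1000 bases had a median log2 fold change of -0.17 and 4 were lower (12.9%, beside 6.15% of all such genes), and the 42 shorter ones had -0.11 and 1 lower (2.38%, beside 7.23%). Of the 75 members, 36 had no exon overlap with another gene and no near-identical stretch in another transcript, with a median of -0.15. Of these 36, 4 were lower (11.1%), beside 6.05% of all tested genes and 11.7% of the highly expressed genes. Ndufv1, Ndufs8, Uqcrc1 and Ndufa4 are in this group of 36.

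Other genes that build, regulate or feed the chain were followed in 9 lists with 110 distinct tested genes, of which 8 were lower and 0 higher in edgeR's test (22 and 1 at an unadjusted p under 0.05). Of all tested genes 6.05% were lower and 13.3% higher (13.2% and 19.3% unadjusted), and of the highly expressed genes 11.7% and 3.44%. With the block 42 of the 110 were lower and 1 higher, beside 24.3% and 24.7% of all tested genes and 42.1% and 10.4% of the highly expressed genes. Without the libraries numbered 6 they were 43 and 0, beside 20.9% and 23.9%, and 35.2% and 10.9%. Upper-quartile scaling gave 1 and 1, beside 2.96% and 15.3%, and 5.73% and 5.01%. Complex II, the succinate dehydrogenase that links the chain to the citric acid cycle, had 0 of 4 subunits called (2 lower at an unadjusted p under 0.05, edgeR), and 2 of 4 lower with the block and likewise without the libraries numbered 6. Sdha, its flavoprotein, averaged 253 ± 7.15 CPM in EZH2i and 279 ± 6.13 CPM in DMSO (log2 fold change -0.14, adjusted p of 0.0524 in edgeR's test, 0.0217 with the block and 0.0219 without the libraries numbered 6). Among the assembly factors, 1 of 14 for complex I, 0 of 6 for complex III (1 at an unadjusted p), 3 of 23 for complex IV and 1 of 5 for complex V were lower, and 0 of 3 subunits whose symbols lie outside the families were called (0 at an unadjusted p). Cox20, which chaperones a mitochondrially encoded subunit of complex IV, averaged 14.1 ± 1.7 CPM in EZH2i and 20 ± 3 CPM in DMSO (log2 fold change -0.50, adjusted p of 0.00897, edgeR). Cox15 makes heme A for the same complex and had -0.21 (adjusted p of 0.0253, edgeR), and Cox18 helps insert that subunit and had -0.36 (adjusted p of 0.0271, edgeR). Atpif1, the inhibitor that holds ATP synthase back from running in reverse, averaged 71.2 ± 5.01 CPM in EZH2i and 90.3 ± 12.1 CPM in DMSO (log2 fold change -0.34, adjusted p of 0.0187, edgeR). Among 13 genes of coenzyme Q synthesis 1 was lower, Coq10b (-0.38, adjusted p of 0.0268, edgeR), and among 21 genes of import and the outer membrane 1 was lower, the receptor Tomm22 (-0.21, adjusted p of 0.0438, edgeR).

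Of 22 tested regulators 1 was lower by edgeR's test on the group alone, 12 were lower with the block and 7 without the libraries numbered 6, with 0 higher in each. The shares lower in these fits were 6.05%, 24.3% and 20.9% of all tested genes, and 11.7%, 42.1% and 35.2% of the highly expressed genes. The 1 called on the group alone was Nrf1 (nuclear respiratory factor 1), a transcription factor known to bind promoters of many respiratory chain genes. Its level ran from 65.5 to 75.3 CPM in EZH2i with a median of 70.8, against 77.2 to 84.6 CPM in DMSO with a median of 82.5. The groups did not overlap, and the log2 fold change was -0.22 ± 0.053 (adjusted p of 0.012 in edgeR's test, and 0.0615 under upper-quartile scaling). Tfam, which packages and transcribes mitochondrial DNA, averaged 59.8 ± 7.33 CPM in EZH2i and 70 ± 5.16 CPM in DMSO (-0.23, adjusted p of 0.0837 in edgeR's test and 0.00185 with the block). Gabpa, the DNA-binding part of nuclear respiratory factor 2, had -0.19 (adjusted p of 0.153, and 0.016 with the block), and Yy1 had -0.12 (adjusted p of 0.209). Esrra, an orphan nuclear receptor of energy metabolism, had 0.14 (adjusted p of 0.69), and the coactivator Ppargc1b had -0.10 (adjusted p of 0.784, all in edgeR's test). Myc, which drives growth and mitochondrial genes in activated T cells, stood at 507 CPM in EZH2i library 6 and 511 CPM in DMSO library 6, with group medians of 247 and 287 CPM (log2 fold change -0.12, adjusted p of 0.809, edgeR). The coactivator Pprc1 showed the same: 136 CPM in EZH2i library 6 and 124 CPM in DMSO library 6, with group medians of 20.1 and 28.1 CPM, and it was chosen after its values were seen. Their part in the members' values in the libraries numbered 6 was not tested.

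Because Nrf1 was called and its binding sequence is well known, the RefSeq promoter windows (GRCm38.p6, 250 bases before to 50 after each annotated start) were searched on both strands for its motif, GCGCA followed by any base and GCGC. Windows were found for 68 of the 82 members, and 14 (20.6%) held the motif, beside 4.78% of all 27025 windows and 11.2% of the 8996 windows of tested genes. CCGGAAG, the core bound by ETS factors such as Gabpa, was in 13 members (19.1%, beside 9.12% of all windows and 19.5% of those of tested genes), and AANATGGCG, bound by Yy1, in 9 (13.2%, beside 2.51% and 5.7%). The following 30-base stretches, 5′ to 3′ with the motif in capitals, are those of Uqcrc1, the called member that held it, and of the 6 members with the motif that were lower both with the block and without the libraries numbered 6, followed by Ndufa6 and Atp5g2, 2 of the 6 with the motif that were called in neither fit. Of 13 tested members with the motif, 7 were thus lower in both fits and 6 in neither. Of all 75 tested members, 27 were lower in both. Each fit alone called 24.3% and 20.9% of all tested genes lower, and 42.1% and 35.2% of the highly expressed genes. The share of all tested genes lower in both was not computed, and a link between motif and call was not tested.
Uqcrc1 (chr9:108936643-108936672, plus strand): cttccttacaGCGCTTGCGCctcagactcc
Ndufs6 (chr13:73328479-73328508, minus strand): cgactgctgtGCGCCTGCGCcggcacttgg
Ndufa8 (chr2:36049349-36049378, minus strand): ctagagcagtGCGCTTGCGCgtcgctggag
Ndufa11 (chr17:56717692-56717721, plus strand): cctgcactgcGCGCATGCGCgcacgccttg
Ndufa5 (chr6:24527697-24527726, minus strand): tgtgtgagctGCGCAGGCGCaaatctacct
Atp5h (chr11:115420041-115420070, minus strand): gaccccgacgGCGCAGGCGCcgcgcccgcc
Atp5o (chr16:91931602-91931631, minus strand): gctggcgcgcGCGCGTGCGCtctggcgcca
Ndufa6 (chr15:82354249-82354278, minus strand): ccgtggcaccGCGCGTGCGCacgctgaagg
Atp5g2 (chr15:102671070-102671099, minus strand): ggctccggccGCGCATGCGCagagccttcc
The same 10 letters stood in members that were lower and in members that were not, for example GCGCATGCGC in both Ndufa11 and Atp5g2. A match describes the letters in the window and shows no binding.

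Markers of the labelled cells and of others were set beside the result. The 7 CD8 T cell markers summed to between 4290 and 5351 CPM in EZH2i and between 5353 and 6567 CPM in DMSO. Of these 7, 3 were lower, beside 6.05% of all tested genes and 11.7% of the highly expressed genes. B cell markers summed to 14.8 to 21.8 CPM in EZH2i and 19.2 to 25.3 CPM in DMSO. Markers of NK cells summed to 3.81 to 9.29 CPM in EZH2i and 0.432 to 1.49 CPM in DMSO, nearly all of it Klrb1c (5.1 CPM in EZH2i and 0.852 CPM in DMSO on average, called higher), with Ncr1 at 0.0455 CPM in both groups and Klra8 and Klra4 at 0. Myeloid markers summed to 4.86 to 14.6 CPM in EZH2i and 1.73 to 7.32 CPM in DMSO, nearly all of it Itgam (11.6 CPM in EZH2i and 4.75 CPM in DMSO on average, called higher), while Lyz2, at 0.283 and 0.194 CPM, Csf1r, at 0.0144 and 0.00876 CPM, and S100a8, at 0.0144 and 0 CPM, were at or near 0. The sums were, for dendritic cell markers, 1.3 to 3.77 CPM in EZH2i and 0.179 to 1.69 CPM in DMSO, and for those of CD4 and regulatory T cells, 23.7 to 34.7 CPM in EZH2i and 17.2 to 22.8 CPM in DMSO. Endothelial and stromal markers summed to 61.2 to 184 CPM in EZH2i and 88.7 to 196 CPM in DMSO, most of it Pecam1 (146 and 163 CPM on average, log2 fold change -0.15, not called), with Col3a1 at or near 0 (0.0158 and 0 CPM). Of this list Pdgfrb was higher, at 3.09 ± 1.13 CPM in EZH2i and 0.392 ± 0.219 CPM in DMSO (log2 fold change 2.92, adjusted p of 0.000266, edgeR). Erythroid and platelet markers stayed at 0.341 to 0.854 CPM in EZH2i and 0.0595 to 1.04 CPM in DMSO, with Hba-a1, Hbb-bs and Alas2 at 0. Their part in the respiratory chain values was not tested.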

How the data were processed

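For each library the authors deposited a table of unnormalized read counts by gene symbol. Per the labels' protocols, libraries were made from 500 ng of total RNA with a stranded poly(A) kit and sequenced on a NextSeq 500. Per the submitters' processing notes, reads went through TopHat2 2.1.1 and featureCounts with GRCm38 (mm10), beside Trimmomatic 0.38, FastQC 0.11.7 and SAMtools 1.9. The annotation and the handling of strand and of reads with several matches are unstated.

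Tests were run with edgeR 4.0.16 in R 4.3.3: filterByExpr at its defaults, TMM scaling and the two-sided quasi-likelihood test on the group alone, fitted on 11727 genes, with Benjamini-Hochberg adjustment over all of them and calls at an adjusted p under 0.05. A gene low in one group can pass this filter through the other. Alternatives were RLE and upper-quartile scaling, no filter, DESeq2 1.42.0, the library number as a block, each library left out and both libraries numbered 6 left out; the block combined with upper-quartile scaling or without the libraries numbered 6, and the restriction to members without overlap, were added after seeing the data. Paralogue ratios used exact permutation tests. The fits were tested on simulated data.

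After subtraction of group means, the 2 libraries of a number correlated across genes at 0.213, 0.445, 0.286, 0.527, 0.317 and 0.847 (numbers 1 to 6). Each is above 0.1, so fits with the number as a block were run beside the main test, on the data's evidence and not the labels'. The main test and the permutation tests over all 12 libraries used the group alone, without pairing. Without number 6 the lowest correlation was 0.0371 (number 5), which is below 0.1. Correlations between libraries of different numbers were not computed. Replicates differed by more than sampling noise (lowest chi-square over degrees of freedom 4.94).

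The members and lists were chosen with earlier results of these data known. Genes named were each complex's called members (without any, its lowest p), a chosen set (Cycs, Cyc1, Cox7a2l, Ndufa4, Cox4i1, Cox5a, Atp5b, Ndufs1 and Uqcrc1), the members of the ratios, up to 3 called genes of each list and 7 regulators. Of the members, 80 of 82 were found in GENCODE M21 (not Atp5o and Atp5sl), and per-kilobase levels use its transcripts. Near-identical stretches (at least 75 bases at 97% identity) were found with BLAST 2.17.0. Promoter sequences are those of RefSeq for GRCm38.p6.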

Additional observations from a re-analysis of the deposited data

Results flagged for a closer look

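A library of 1 group was called apart when its gap to the nearest library exceeded the Dixon limit for 6 values. This was checked in both groups for the 19 members with values by library, 38 groups of values in all. In these, 15 values stood apart, all of EZH2i library 6, DMSO library 6 or DMSO library 4. Chance gives about 1 in 20 for independent groups, but these groups share the same 12 libraries, so that rate cannot be set against the 15. Libraries numbered 6 account for 14 of the 15. In both groups library 6 was highest for Cycs (248 CPM in EZH2i and 285 CPM in DMSO), Ndufs1 (114 and 123 CPM), Atp5a1 (925 and 994 CPM) and Atp5b (1312 and 1328 CPM), and lowest for Cox7a2l (273 and 276 CPM). EZH2i library 6 alone stood apart, as the highest of its group, for Atp5g1 (96.3 CPM), Atp5g3 (221 CPM), Cyc1 (129 CPM) and Uqcrc1 (172 CPM). DMSO library 4 stood apart as the lowest for Cox6b1 (120 CPM). What sets these libraries apart was not tested.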

How the results depend on the processing

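Of 75 members, 5 were lower and 0 higher. The shares of all tested genes and of the highly expressed genes under the main settings are given in the Results. Upper-quartile scaling gave 2 lower. DESeq2 gave 12 lower and 1 higher. With the replicate block it was 30 and 3, without both libraries numbered 6 it was 36 and 1, with the block and upper-quartile scaling 15 and 4, and with the block and without the libraries numbered 6 it was 46 and 4. Leaving out 1 library gave 2 to 27 lower and 0 to 1 higher (1 without DMSO library 6).

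Complex I had 2 lower: 1 with upper-quartile scaling, 5 with DESeq2, 15 with the block (1 higher), 19 without the libraries numbered 6, 6 with block and upper-quartile scaling (1 higher), 23 with block and without the libraries numbered 6 (1 higher), and 1 to 13 with 1 library left out. Complex III had 2 lower: 0 with upper-quartile scaling, 6 with the block, 6 without the libraries numbered 6, 6 with both, and 0 to 6 with 1 library left out. Complex IV had 1 lower: 3 without the libraries numbered 6 (1 higher), 4 with the block as well (3 higher), 1 to 3 with 1 library left out (0 to 1 higher), and 1 higher with DESeq2, 2 with the block and 3 with block and upper-quartile scaling. Complex V had 0 lower: 3 with DESeq2, 7 with the block, 8 without the libraries numbered 6, 5 with block and upper-quartile scaling, 12 with block and without the libraries numbered 6, and 0 to 5 with 1 library left out.

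The other lists had 8 lower and 0 higher: upper-quartile scaling gave 1 and 1, the block gave 42 and 1, and there were 43 lower without the libraries numbered 6. The difference in log2 ratio of Cox6b2 to Cox6b1 stayed at 0.79 under the block, with an adjusted p of 0.125 (exact sign flips), and was 0.51 to 0.88 with 1 library left out. Cox7a2l to Cox7a2 turned to 0.03 without both libraries numbered 6 and ran from -0.13 to 0.14 with 1 library left out (above 0 when EZH2i library 5 or 6 was left out, at 0.01 and 0.14, or DMSO library 3 or 5, at 0.02 and 0.00). Atp5g1 to Atp5g3 ran from -0.14 to 0.04 (0.04 without DMSO library 6). The causes were not tested. RLE scaling and the absence of a filter left the member counts within 1.5 times.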
